A study of Ambystoma mexicanum with 20 samples.

Results

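S100A1, S100A10 and S100G were examined in the regenerating forelimb of the axolotl as 5 assembled transcripts of the 180605 listed in the deposited expression table. A transcript was taken as a member when the gene lists published with the study paired its identifier with one of these 3 symbols. S100A1 had 1 transcript (GFZP01158445.1). S100A10 had a pair, called here transcript 1 (GFZP01018277.1) and transcript 2 (GFZP01057521.1), and so had S100G, with transcript 1 (GFZP01018179.1) and transcript 2 (GFZP01143316.1). The symbols are the best protein matches that the authors assigned, and S100 proteins resemble each other, so a symbol here names the closest match and not an established axolotl orthologue. The 2 transcripts of S100A10 and of S100G may share reads that the quantification divided between them, so the split within each gene is uncertain.

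The 20 RNA-seq samples came from juvenile Ambystoma mexicanum whose forelimbs had been amputated through the upper arm. Epidermis (labelled wound epidermis) and the soft tissue (ST) beneath it were each collected on the day of amputation and 3 and 8 days later, written 0, 3 and 8 dpa (days post-amputation). After amputation the stumps were injected every other day with 25 mM MS-275 or with the solvent DMSO, and the injected volume is 2 microlitres in the sample labels. MS-275, also called entinostat, inhibits class I histone deacetylases, enzymes that remove acetyl groups from histones. The 5 conditions of each tissue were thus 0 dpa, 3 and 8 dpa with DMSO, and 3 and 8 dpa with MS-275, with 2 replicates each. The labels give the 0 dpa samples as DMSO, whereas the study describes them as a homeostatic control, and they are called 0 dpa here. A replicate was a pool of limbs from 2 animals. By the animal counts of the study both tissues came from the same animals, though the labels do not match epidermis pools to ST pools.

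S100 proteins are small EF-hand proteins, most of which work as dimers that bind target proteins when calcium rises. S100A10 departs from the others in that it does not need calcium; in mammals it forms a complex with annexin A2 at the inner face of the plasma membrane, where the giant scaffold protein AHNAK also binds. S100A1 is best known in mammals from striated muscle, where it acts on the calcium pump and the calcium release channel of the sarcoplasmic reticulum. S100G, the small intestinal calbindin of mammals, buffers calcium as it crosses epithelial cells from TRPV channels to plasma membrane pumps. Several S100 genes are active in mammalian skin, where they respond to wounding and to the state of keratinocyte differentiation.

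All values below are transcript abundances as TPM, a level scaled to transcript length and to the total of the sample, so levels can be compared between transcripts. Each sample listed between 72566 and 92979 transcripts above 0, and the read depth is unknown because no counts were used. Differences are log2 fold changes from limma on log2(TPM + 0.1), a scale that understates the change of low transcripts, with standard errors (SE). p-values are two-sided and adjusted by Benjamini-Hochberg over every transcript tested, and a call means an adjusted p under 0.05. Counts at an unadjusted p under 0.05 are given without the share of all transcripts under that p. The shares printed beside them are shares of calls, so the unadjusted counts do not set members, markers or lists apart. All 5 transcripts passed the filter on low values (TPM above 0 in at least 5 samples of a tissue). The members were selected on their changes in control epidermis, which put them in the study's lists, all 5 between 0 and 3 dpa and those of S100A1 and S100G also between 3 and 8 dpa, and none in a list for ST. Changes that use those epidermis samples are therefore described without a test. Tests of the other epidermis samples share 1 estimate of the spread with them, so they are not fully independent of the choice. Because these are bulk tissues, fewer cells of a type and less RNA per cell cannot be told apart. Summed skeletal muscle markers were at 2337 to 35815 TPM in ST and at 0.84 to 197.2 TPM in epidermis. Epidermis markers were at 2672 to 11148 TPM in epidermis and at 19.89 to 2426 TPM in ST.

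In control epidermis S100A1 and S100G were barely present in the intact limb, appeared at 3 dpa and had largely gone by 8 dpa. S100A1 was at 0.12 and 0.06 TPM at 0 dpa, 15.97 and 32.76 TPM at 3 dpa, and 1.47 and 2.45 TPM at 8 dpa. S100G transcript 1 was at 0.73 and 1.09 TPM, then 44.37 and 82.18 TPM, then 7.07 and 10.19 TPM at the same times. S100G transcript 2 went from 0.39 and 0.60 TPM to 29.75 and 59.23 TPM and then to 4.86 and 4.70 TPM. For each of these 3 transcripts both replicates at 3 dpa were above both at 8 dpa, and both at 8 dpa were above both at 0 dpa. The means at 3 dpa were 271-fold those at 0 dpa for S100A1 and 69.5-fold and 89.9-fold for S100G transcripts 1 and 2, and they were 12.4-fold, 7.33-fold and 9.31-fold those at 8 dpa. On the log2 scale of the model the rise to 3 dpa was 6.94 (SE 0.40) for S100A1, 5.93 (SE 0.41) for S100G transcript 1 and 6.17 (SE 0.35) for S100G transcript 2.

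S100A10 followed another course in control epidermis, abundant at the start and about doubled afterwards in TPM as listed. Transcript 1 was at 416.42 and 491.08 TPM at 0 dpa, 800.33 and 1158.67 TPM at 3 dpa, and 924.71 and 1045.33 TPM at 8 dpa. Transcript 2 was lower at every time, at 111.81 and 117.34 TPM, then 166.01 and 293.44 TPM, then 223.43 and 241.17 TPM. The ratio of means of 3 to 0 dpa was 2.16 for transcript 1 and 2.005 for transcript 2, and the 3 and 8 dpa ranges overlapped for both. Between 3 and 8 dpa the log2 differences of 0.03 and 0.07 became -0.68 and -0.64 when samples were rescaled to equal median ratios, a setting that removes a shift of all transcripts, so no direction is given for that interval. The same rescaling took the log2 rise from 0 to 3 dpa from 1.09 and 0.95 to 1.33 and 1.18. It took the rise from 0 to 8 dpa from 1.12 and 1.02 to 0.64 and 0.54.

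With MS-275 the same 3 transcripts stood at higher levels in epidermis at both times. S100A1 reached 179.24 and 286.76 TPM at 3 dpa and remained at 119.51 and 108.83 TPM at 8 dpa. S100G transcript 1 was at 483.32 and 346.87 TPM at 3 dpa and 181.62 and 347.81 TPM at 8 dpa. S100G transcript 2 was at 332.53 and 298.36 TPM, and then at 149.10 and 237.92 TPM. All these values lay above every control epidermis sample of the same transcript. The ratio of MS-275 to DMSO means was 9.56 for S100A1, 6.56 for S100G transcript 1 and 7.09 for S100G transcript 2 at 3 dpa. At 8 dpa, when the control level had dropped, the same ratios were 58.3, 30.7 and 40.5. Between 3 and 8 dpa with MS-275 the log2 difference was -0.99 for S100A1 (SE 0.40, adjusted p = 0.3692), -0.70 for S100G transcript 1 (SE 0.41, adjusted p = 0.5438) and -0.74 for S100G transcript 2 (SE 0.35, adjusted p = 0.4489). Neither group of that comparison was behind the choice of members, but the SE used the spread of all epidermis samples, including those that were. In that comparison limma called 0 of the 5 members, with 1 at an unadjusted p under 0.05, beside 0.0250% of all transcripts tested called lower.

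**Figure D1:**
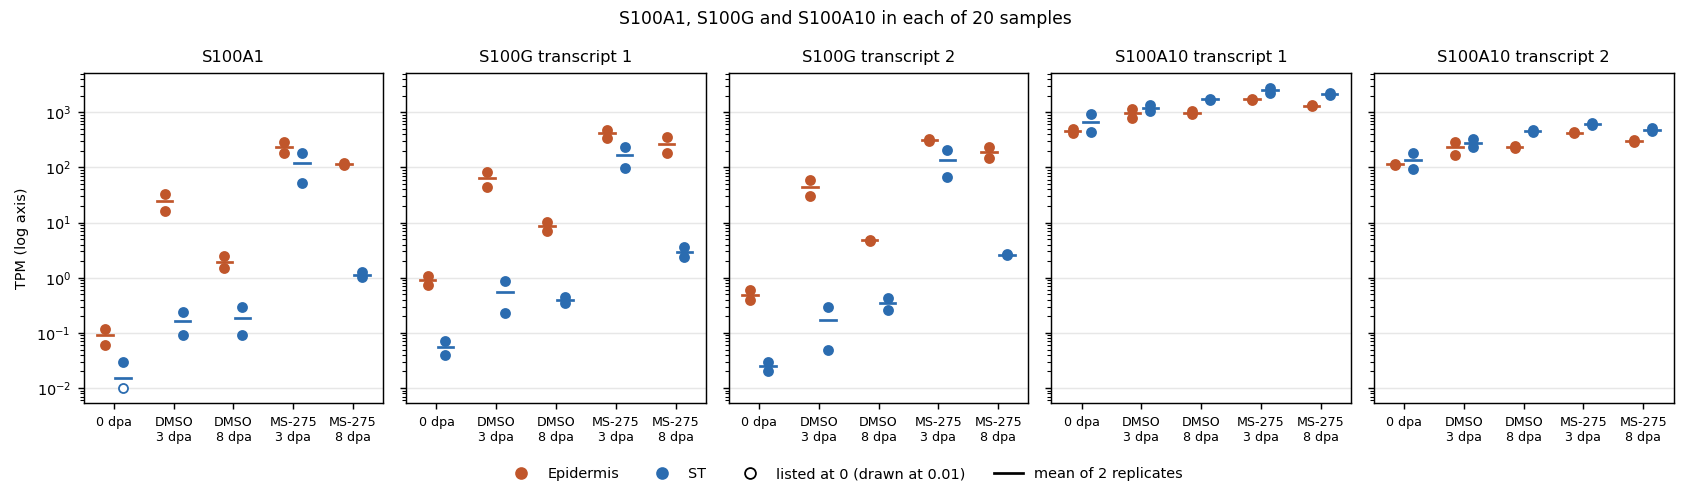
TPM of the 5 transcripts on a log axis in each of the 20 samples, by tissue and condition, with a point for each replicate and a bar at the mean of the 2. S100A1 and S100G span several orders of magnitude and are highest with MS-275, while both S100A10 transcripts stay above 90 TPM in every sample.

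S100A10 in epidermis was at 1683.10 and 1767.56 TPM (transcript 1) and 438.41 and 413.71 TPM (transcript 2) at 3 dpa with MS-275. At 8 dpa it was at 1277.85 and 1337.42 TPM and at 285.34 and 314.67 TPM. These values lay above both DMSO replicates of the same day for each transcript. The ratios to the DMSO means were 1.76 and 1.85 at 3 dpa and 1.33 and 1.29 at 8 dpa, far smaller than those of S100A1 and S100G. The 8 dpa difference could be tested for S100A10, whose choice did not rest on 8 dpa samples, although its spread came from all epidermis samples of the fit. The log2 difference was 0.41 (SE 0.25, adjusted p = 0.3178) for transcript 1 and 0.37 (SE 0.26, adjusted p = 0.3845) for transcript 2, so limma called 0 of the 2, with 0 at an unadjusted p under 0.05, beside 2.0% of all transcripts called higher. The median transcript of that comparison was shifted by -0.48, and the share of higher calls among all calls went from 16.4 to 63.2% on rescaling. After rescaling the S100A10 differences were 1.12 (adjusted p = 0.04901) and 1.08 (adjusted p = 0.02672), both past the threshold. From 3 to 8 dpa with MS-275 they were -0.40 (adjusted p = 0.5862) and -0.51 (adjusted p = 0.4893).

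No ST sample entered the lists through which the members were chosen, so ST differences are given with their tests. In control ST, S100A1 and S100G were scarcely detected at any time. S100A1 was at 0 and 0.03 TPM at 0 dpa, 0.09 and 0.24 TPM at 3 dpa, and 0.29 and 0.09 TPM at 8 dpa. S100G transcript 1 was at 0.04 and 0.07 TPM, then 0.23 and 0.86 TPM, then 0.44 and 0.35 TPM. S100G transcript 2 was at 0.02 and 0.03 TPM, then 0.05 and 0.29 TPM, then 0.43 and 0.26 TPM. No control ST sample thus reached 1 TPM of any of the 3. From 0 to 3 dpa their log2 differences were 1.16 (adjusted p = 0.2935) for S100A1, 1.87 (adjusted p = 0.06681) for S100G transcript 1 and 0.95 (adjusted p = 0.358) for S100G transcript 2. In that comparison limma called 0 of the 5 members, with 3 at an unadjusted p under 0.05, beside 13.1% of all transcripts called higher. The median transcript rose by 0.46, and after rescaling the 3 differences were 0.99, 1.51 and 0.72, while the share of higher calls among all calls went from 85.5 to 52.7%. Between 3 and 8 dpa limma also called 0 of the 5, with 0 at an unadjusted p under 0.05, beside 1.74% called higher, a comparison in which the median transcript rose by 0.47 and the share of higher calls went from 90.9 to 67.9% on rescaling.

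Under MS-275 at 3 dpa the same transcripts rose in ST by more than 2 orders of magnitude. S100A1 was at 52.67 and 184.14 TPM, S100G transcript 1 at 96.29 and 231.92 TPM, and S100G transcript 2 at 66.49 and 202.24 TPM. Every one of these values was above all control ST values of its transcript, and the second replicate was the higher each time. The log2 difference from DMSO at 3 dpa was 8.60 for S100A1 (SE 0.65, adjusted p = 0.003001), 8.05 for S100G transcript 1 (SE 0.58, adjusted p = 0.00214) and 8.91 for S100G transcript 2 (SE 0.61, adjusted p = 0.001783). The ratios of the means were 718, 301 and 790, each over a control mean under 1 TPM. Of the 5 members limma called 3 higher, beside 2.86% of all transcripts called higher and 0.616% called lower. All 5 had an unadjusted p under 0.05, a count without its share over all transcripts. When each of the 10 ST samples was left out in turn, the S100A1 difference lay between 7.70 and 9.50 and its adjusted p between 0.003759 and 0.02277, and both S100G transcripts also remained past the threshold.

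Epidermis markers moved with this result. The summed TPM of 17 transcripts of keratin and sciellin genes that mark epidermis was 19.89 and 103.4 in ST at 3 dpa with DMSO and 769.0 and 2426 with MS-275, against 11148 and 9252 in the epidermis itself at 3 dpa with MS-275. All 15 of these that passed the filter in ST were called higher, with a median log2 difference of 6.54 beside 0.09 for all transcripts, and 1 of the 17 was listed at 0 in both MS-275 replicates. Without the second MS-275 replicate 2 of 14 marker transcripts were called, with a median of 5.86, and without the first DMSO replicate 4 of 15, with a median of 6.29. All 14 and all 15 had an unadjusted p under 0.05, and higher calls over all transcripts fell from 2507 to 172 and 351. The 3 members were called in either case. The second MS-275 replicate held 3.15 times the marker sum of the first, and 3.50, 2.41 and 3.04 times as much S100A1, S100G transcript 1 and S100G transcript 2. The part of these markers in the result was not tested.

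Set against the epidermis mean of the same condition, the ST level at 3 dpa with MS-275 was 22.6 and 79.0% for S100A1, 23.2 and 55.9% for S100G transcript 1 and 21.1 and 64.1% for S100G transcript 2. The summed epidermis markers stood at 7.54 and 23.8% in the same ST samples. In group means the 3 transcripts were at 50.8%, 39.5% and 42.6% of epidermis, and the 17 single marker transcripts ranged from 0 to 55.5% with a median of 15.8%. Only the highest of them, KRT17 transcript GFZP01077486.1 at 55.5% and KRT15 transcript GFZP01134035.1 at 54.5%, were above all 3 members. At 8 dpa the 3 transcripts were at 0.99 to 1.36% of epidermis and the markers at 0 to 3.71%.

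**Figure D2:**
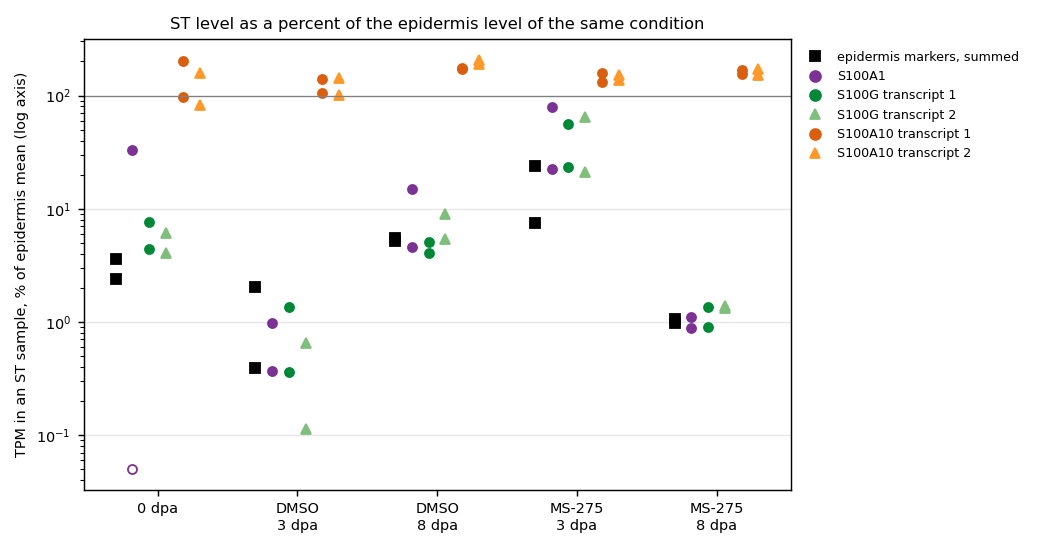
Level in each ST replicate as a percent of the mean epidermis level of the same condition, on a log axis, for the 5 transcripts and for the summed epidermis markers. At 3 dpa with MS-275 S100A1 and S100G lie between 21.1 and 79.0% and the markers at 7.54 and 23.8%, whereas S100A10 lies above 100%.

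By 8 dpa most of this ST signal had gone although injections continued. S100A1 was at 1.01 and 1.26 TPM, S100G transcript 1 at 3.56 and 2.39 TPM and S100G transcript 2 at 2.57 and 2.70 TPM. These were still above both DMSO replicates of 8 dpa, but the means were 104-fold, 55.2-fold and 51.0-fold below those at 3 dpa with MS-275. Against DMSO at 8 dpa the log2 differences were 2.17 (adjusted p = 0.1353) for S100A1, 2.61 (adjusted p = 0.07233) for S100G transcript 1 and 2.65 (adjusted p = 0.07846) for S100G transcript 2. In that comparison limma called 0 of the 5 members, with 3 at an unadjusted p under 0.05, beside 0.434% of all transcripts called higher and 0.826% called lower. The median transcript was shifted by -0.33, and on rescaling the differences were 2.37, 2.92 and 2.94, with the share of higher calls among all calls going from 34.5 to 78.3%. The epidermis markers summed to 65.07 and 69.50 TPM in these samples, below the 338.4 and 318.4 TPM of DMSO at 8 dpa, and limma called 0 of 15 in either direction, with 10 at an unadjusted p under 0.05. At 8 dpa the marker sum was below and the 3 members were above their DMSO values, with no marker transcript and no member called. The part of these markers in the ST levels at 8 dpa was not tested.

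The change from 3 to 8 dpa with MS-275 in ST was -6.33 for S100A1 (SE 0.65, adjusted p = 0.03856), -5.63 for S100G transcript 1 (SE 0.58, adjusted p = 0.03856) and -5.41 for S100G transcript 2 (SE 0.61, adjusted p = 0.0516). Limma called 2 of the 5 members, with 3 at an unadjusted p under 0.05, beside 0.0263% of all transcripts called lower. The MS-275 effect itself was smaller at 8 than at 3 dpa by an interaction of -6.43 (SE 0.92, adjusted p = 0.03162), -5.44 (SE 0.82, adjusted p = 0.03405) and -6.26 (SE 0.86, adjusted p = 0.02991) for S100A1, S100G transcript 1 and S100G transcript 2. Limma called 3 of the 5 members here, with 4 at an unadjusted p under 0.05, beside 1.10% of all transcripts called lower. On rescaling, which removes a median shift of -0.42 from the interaction and moves the share of higher calls from 11.2 to 34.4%, 0 of the 5 were called in either comparison, although the differences moved little. For S100A1, S100G transcript 1 and S100G transcript 2 they were then -6.33, -5.64 and -5.42 from 3 to 8 dpa (adjusted p = 0.06126 for each), and -6.13 (adjusted p = 0.06307), -5.04 (adjusted p = 0.07199) and -5.88 (adjusted p = 0.06054) for the interaction. The summed epidermis markers moved with the members, from 769.0 and 2426 TPM at 3 dpa to 65.07 and 69.50 TPM at 8 dpa with MS-275, where limma called 0 of 15 marker transcripts with all 15 at an unadjusted p under 0.05 and a median of -4.20. In the interaction 10 of 15 were called lower, with a median of -6.18, and the part of these markers in the result was not tested. Both sets of calls were close to the threshold. The interaction calls fell to 0 without any 1 of 6 of the 10 ST samples (the first DMSO replicate and the second MS-275 replicate at 3 dpa, and each sample of 8 dpa), and the calls between 3 and 8 dpa fell to 0 without any 1 of 7, namely both 0 dpa samples, the second MS-275 replicate at 3 dpa and each sample of 8 dpa. The directions held throughout, with the S100A1 interaction between -7.33 and -5.52 and its adjusted p between 0.02176 and 0.1445, and the S100A1 change from 3 to 8 dpa between -7.23 and -5.42 with an adjusted p between 0.03013 and 0.244.

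S100A10 behaved differently in ST from the other members, being among the most abundant transcripts from the start. Transcript 1 was at 438.06 and 909.74 TPM at 0 dpa, 1030.23 and 1372.43 TPM at 3 dpa and 1681.93 and 1737.62 TPM at 8 dpa with DMSO. Transcript 2 was at 94.13 and 181.51 TPM, then 232.04 and 327.55 TPM, then 479.33 and 444.81 TPM. The replicates of successive times did not overlap for either transcript. From 0 to 8 dpa transcript 1 rose by 1.44 (SE 0.39, adjusted p = 0.02734) and transcript 2 by 1.82 (SE 0.33, adjusted p = 0.004571), the only 2 of the 5 members called, with 4 at an unadjusted p under 0.05, beside 27.5% of all transcripts called higher. The median transcript also rose by 0.96 in that comparison, and after rescaling to equal median ratios the differences were 0.10 (adjusted p = 0.9318) and 0.49 (adjusted p = 0.5033). The share of higher calls among all calls went from 91.8 to 53.5% with that rescaling. The call of transcript 1 was lost in 3 of the 10 fits that left out 1 sample, those without the first 0 dpa replicate or without either DMSO replicate of 8 dpa, with the adjusted p ranging from 0.005086 to 0.1213. Connective tissue markers moved with this, summing to 633 and 809.9 TPM at 0 dpa, 1180 and 2051 TPM at 3 dpa and 5633 and 5720 TPM at 8 dpa, and their part in the result was not tested.

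With MS-275 S100A10 in ST was at 2715.32 and 2259.02 TPM at 3 dpa and 2197.12 and 2009.61 TPM at 8 dpa for transcript 1, and at 641.73 and 588.78 TPM and 513.44 and 456.62 TPM for transcript 2. At 3 dpa these values lay above both DMSO replicates, with ratios of means of 2.07 and 2.20. The log2 differences were 1.06 (SE 0.39, adjusted p = 0.1823) and 1.16 (SE 0.33, adjusted p = 0.0979) and did not pass the test. At 8 dpa they were 0.30 (adjusted p = 0.7246) and 0.07 (adjusted p = 0.9367), and transcript 2 overlapped its controls. Its interaction of treatment and time was -0.76 (adjusted p = 0.5442) for transcript 1 and -1.09 (adjusted p = 0.2877) for transcript 2. Unlike S100A1 and S100G, S100A10 was not higher in the second MS-275 replicate of 3 dpa, which held 0.832 and 0.917 times the level of the first.

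Against intact ST, all 5 members were called higher with MS-275 at both times. At 3 dpa the log2 differences from 0 dpa were 9.76 for S100A1 (adjusted p = 0.0001027), 9.92 for S100G transcript 1 (adjusted p = 6.89e-05), 9.86 for S100G transcript 2 (adjusted p = 8.283e-05), 1.97 for S100A10 transcript 1 (adjusted p = 0.01068) and 2.23 for S100A10 transcript 2 (adjusted p = 0.002806). All 5 had an unadjusted p under 0.05, beside 18.0% of all transcripts called higher. At 8 dpa they were 3.43 for S100A1 (adjusted p = 0.008944), 4.29 for S100G transcript 1 (adjusted p = 0.001871), 4.45 for S100G transcript 2 (adjusted p = 0.002043), 1.73 for S100A10 transcript 1 (adjusted p = 0.01897) and 1.89 for S100A10 transcript 2 (adjusted p = 0.005986), beside 16.8% called higher. S100A10 transcript 1 lost its call without the first MS-275 replicate at 3 dpa (adjusted p = 0.06454) and without either MS-275 replicate at 8 dpa (up to 0.09836), and S100A1 without the second at 8 dpa (0.06277). The median transcript was shifted by 0.61 and 0.62, and the share of higher calls went from 88.6 to 58.6% and from 88.8 to 58.2% on rescaling. With a pseudocount of 1 the S100A1 difference at 8 dpa was 1.07 (adjusted p = 0.1757) and not called. After rescaling, S100A1 and S100G stayed called at both times, while S100A10 did not, with differences of 1.10 (adjusted p = 0.2083) and 1.36 (adjusted p = 0.06603) at 3 dpa and 0.85 (adjusted p = 0.3489) and 0.9994 (adjusted p = 0.1643) at 8 dpa for transcripts 1 and 2.

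**Figure D3:**
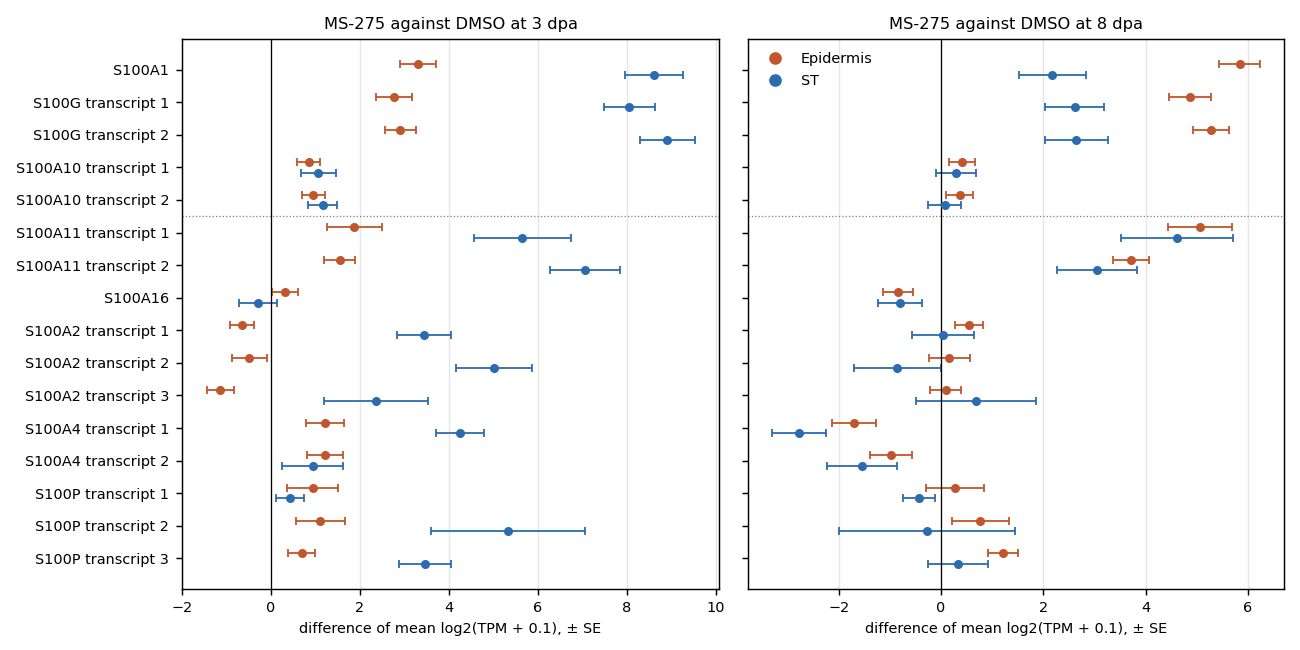
Log2 difference of MS-275 from DMSO at 3 and 8 dpa in each tissue for the 5 members and the 11 other S100 transcripts, with bars of 1 SE from the limma model. In ST the effect on S100A1 and S100G is 8.05 to 8.91 at 3 dpa and 2.17 to 2.65 at 8 dpa; in epidermis it is 2.76 to 3.30 and then 4.87 to 5.83; S100A10 stays between 0.07 and 1.16.

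The tissues could be compared directly in the samples treated with MS-275, with the spread estimated over all 20 samples of the fit. At 3 dpa no member passed the test between tissues, with epidermis minus ST at 1.20 for S100A1 (adjusted p = 0.2224), 1.45 for S100G transcript 1 (adjusted p = 0.1084) and 1.44 for S100G transcript 2 (adjusted p = 0.1046). Limma called 0 of the 5 members, with 3 at an unadjusted p under 0.05, beside 3.92% of all transcripts called higher in epidermis; on rescaling the share of higher calls among all calls went from 39.9 to 51.5%. At 8 dpa they were higher in epidermis by 6.54 (adjusted p = 1.707e-05), 6.38 (adjusted p = 1.54e-05) and 6.11 (adjusted p = 1.681e-05), so that 3 of the 5 were called. All 5 had an unadjusted p under 0.05, with both S100A10 transcripts lower in epidermis. Over all transcripts 3.93% were called higher, out of 10092 of 107026 called in either direction. The share of higher calls among all calls went from 41.7 to 62.2% on rescaling. The drop from 3 to 8 dpa was steeper in ST by 5.34 for S100A1 (SE 0.79, adjusted p = 0.04866), by 4.93 for S100G transcript 1 (SE 0.75, adjusted p = 0.05032) and by 4.67 for S100G transcript 2 (SE 0.73, adjusted p = 0.06421). Limma called 1 of the 5, with 3 at an unadjusted p under 0.05, beside 0.0206% called higher, and the call of S100A1 was lost in 12 of 20 fits that left out 1 sample, those without any 1 MS-275 sample of either tissue other than the first ST replicate of 3 dpa, any 1 DMSO sample of 8 dpa or the second epidermis sample of 0 dpa, its adjusted p ranging from 0.00891 to 0.1808.

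S100A10 lay on the other side, with higher levels in ST. Epidermis minus ST was -0.52 (adjusted p = 0.3795) for transcript 1 and -0.53 (adjusted p = 0.3492) for transcript 2 at 3 dpa, and -0.68 (adjusted p = 0.2282) and -0.69 (adjusted p = 0.2019) at 8 dpa, all with MS-275. Taken over both times, the 4 epidermis samples of transcript 1 ranged from 1277.85 to 1767.56 TPM and the 4 ST samples from 2009.61 to 2715.32 TPM, and those of transcript 2 from 285.34 to 438.41 TPM and from 456.62 to 641.73 TPM. In TPM as listed the groups did not overlap, but they did for both transcripts after rescaling to equal median ratios. The permutation test used TPM as listed. The exact permutation test of 4 against 4 gave p = 0.02857 for each S100A10 transcript, the smallest it can give, p = 0.05714 for each S100G transcript and p = 0.1143 for S100A1, all two-sided and unadjusted. It takes the 8 samples as exchangeable although they span both days and the tissues share animals, and permuting within days or within pairs could not pass the threshold with this many samples. The tests by limma at each day did not pass, and on rescaling the differences were -0.32 and -0.33 at 3 dpa and -0.25 and -0.26 at 8 dpa.

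Ordered by group mean, S100A1 was highest in epidermis at 3 dpa with MS-275 (233 TPM), followed by ST at 3 dpa with MS-275 (118.4 TPM) and epidermis at 8 dpa with MS-275 (114.2 TPM), and neighbours among these 3 overlapped in their replicates. Control epidermis at 3 dpa (24.4 TPM) and 8 dpa (1.96 TPM) came next, then ST at 8 dpa with MS-275 (1.14 TPM), and the remaining 4 groups were under 0.2 TPM, with overlaps between ST at 8 and 3 dpa and epidermis at 0 dpa. Transcripts 1 and 2 of S100G were highest in epidermis at 3 and 8 dpa with MS-275 (415.1 and 264.7 TPM for transcript 1, 315.4 and 193.5 TPM for transcript 2), then in ST at 3 dpa with MS-275 (164.1 and 134.4 TPM). The replicates of the last of these overlapped those of epidermis at 8 dpa for both transcripts, and epidermis at 3 and 8 dpa overlapped for transcript 1. S100A10 had its highest mean in ST at 3 dpa with MS-275 (2487 TPM for transcript 1 and 615.3 TPM for transcript 2) and its lowest in epidermis at 0 dpa (453.8 and 114.6 TPM). Among all transcripts of the table ranked by mean TPM, S100A10 transcript 1 stood between rank 333 in epidermis at 0 dpa and rank 87 in ST at 3 dpa with MS-275. S100A1 went from rank 78814 to rank 570 between epidermis at 0 dpa and epidermis at 3 dpa with MS-275.

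The transcripts of each gene kept close to each other across samples. S100A10 transcript 2 was 0.200 to 0.285 times transcript 1, with a median of 0.236 over all 20 samples. S100G transcript 2 was 0.461 to 1.13 times transcript 1, with a median of 0.690 over the 13 samples in which transcript 1 reached 1 TPM. S100A1 was less fixed against S100G transcript 1, at 0.0551 to 0.827 times over the same 13 samples. On the log2 scale over the 20 samples, Pearson's r was 0.996 between the S100G transcripts, 0.989 between the S100A10 transcripts, and 0.985 and 0.989 between S100A1 and S100G transcripts 1 and 2. It was 0.453 to 0.511 between S100A10 and the rest. These are descriptions over samples that fall into separate tissues and conditions, and carry no test.

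Other S100 transcripts paired with a symbol were looked at beside the members; they too were drawn from lists that the study made on these samples, nearly all in epidermis, and so are not independent evidence of a direction. Of the 11 transcripts of S100A2, S100A4, S100A11, S100A16 and S100P, 6 were called higher and 0 lower in ST with MS-275 at 3 dpa. Over all transcripts 2.86% were called higher and 0.616% lower. The median log2 difference of the 11 was 3.46, beside 0.09 for all transcripts. S100A11, which binds annexin A1 in mammalian keratinocytes, gave the largest change, 7.05 (SE 0.78, adjusted p = 0.009962), for transcript GFZP01138548.1. It was at 3.55 and 9.56 TPM with DMSO and at 432.18 and 1441.20 TPM with MS-275, and its second MS-275 replicate was the higher, as for S100A1 and S100G. A second S100A11 transcript, GFZP01078575.1, was higher by 5.65 (adjusted p = 0.03602). S100A4, known in mammals from motile mesenchymal cells, rose by 4.25 (adjusted p = 0.01291) for GFZP01011505.1, from 2.64 and 7.17 TPM to 60.41 and 118.51 TPM. The other S100A4 transcript, GFZP01078541.1, was at 0.99 and 5.18 TPM with DMSO and at 3.05 and 6.58 TPM with MS-275, which overlapped. Both S100A4 transcripts had higher means in epidermis than in ST in every condition. At 3 dpa with MS-275 the means of GFZP01011505.1 were 377.5 TPM in epidermis and 89.46 TPM in ST.

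S100A2, a keratinocyte protein in mammals, rose by 5.01 (adjusted p = 0.0262) for GFZP01017838.1, from 13.05 and 74.33 TPM to 638.96 and 1586.93 TPM. In ST at 0 dpa that transcript was already at 220.18 and 753.40 TPM, so that, unlike S100A1 and S100G, it was present in the intact limb. Its means in epidermis were far higher than in ST, at 8803 TPM at 0 dpa and 7760 TPM at 3 dpa with DMSO. With MS-275 at 3 dpa the epidermis mean was 5743 TPM, lower than with DMSO but with overlapping replicates. S100P rose by 3.46 (adjusted p = 0.02554) for GFZP01079589.1, from 2.48 and 1.25 TPM to 14.68 and 28.39 TPM. S100A16 was at 4.78 and 6.77 TPM with DMSO and at 5.19 and 4.13 TPM with MS-275, a difference of -0.29 (adjusted p = 0.7591). Without the second MS-275 replicate limma called 0 of 9 tested transcripts of this list, with 6 at an unadjusted p under 0.05 and a median of 3.76, and without the first DMSO replicate it called 2 of 11, with a median of 3.07. Over all transcripts the same fits gave 172 and 351 higher calls in place of 2507. At 8 dpa limma called 0 of the 11 in either direction between MS-275 and DMSO, with 3 at an unadjusted p under 0.05 and a median of -0.27 beside -0.33 for all transcripts. Over all transcripts 0.434% were called higher and 0.826% lower at that day.

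**Figure D4:**
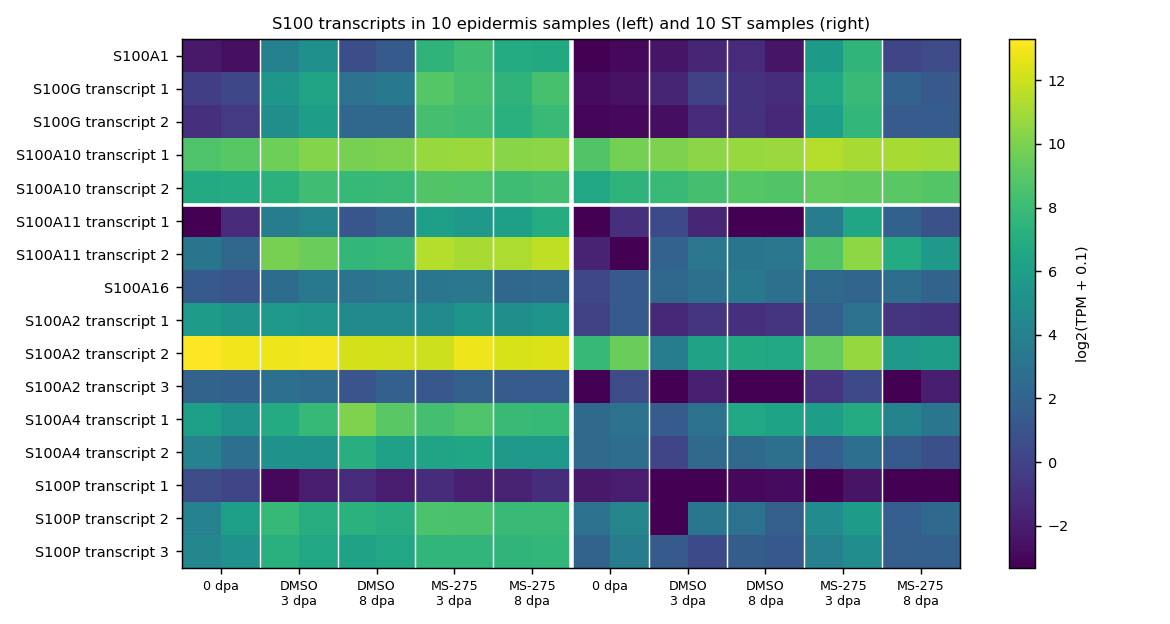
Log2(TPM + 0.1) of the 5 members and the 11 other S100 transcripts in each of the 20 samples, with the 2 replicates of each of the 10 groups side by side. S100A1, S100G and S100A11 are low in intact limbs and control ST and higher in both tissues at 3 dpa with MS-275, while S100A10 is high in every group.

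The partners of S100A10 were looked at in the same way. In ST at 3 dpa with MS-275, 3 of 22 transcripts of annexins and AHNAK proteins were called higher and 0 lower, beside 2.86% of all transcripts called higher, with a median log2 difference of 0.0005 beside 0.09 for all transcripts. Most of the 22 were AHNAK transcripts, so the count and the median describe mainly that gene. The called ones were AHNAK transcripts at low levels, the largest rise being 4.77. Annexin A2 transcript GFZP01139473.1, whose protein binds S100A10 in mammals, was at 583.45 and 794.22 TPM with DMSO and 913.58 and 687.92 TPM with MS-275, a difference of 0.22 (adjusted p = 0.7237) with overlapping replicates. The other annexin A2 transcript, GFZP01018142.1, was at 269.13 and 333.62 TPM with DMSO and 354.55 and 353.84 TPM with MS-275, which did not overlap, a difference of 0.24 (adjusted p = 0.689). At 8 dpa AHNAK transcript GFZP01083967.1 was the 1 transcript of the 22 called lower with MS-275, beside 0.826% of all transcripts called lower. It went from 47.03 and 48.24 TPM to 16.05 and 18.13 TPM, a difference of -1.48 (adjusted p = 0.04951). The other AHNAK transcripts also had lower means with MS-275 at 8 dpa in ST, without a call. The median transcript was shifted by -0.33 in that comparison, and calls over all transcripts went from 1103 to 466 on rescaling.

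Genes that work with S100G and S100A1 in mammals were set beside them in the same way. Of 7 transcripts of epithelial calcium transport (TRPV5 and TRPV6 channels, calbindin and plasma membrane pumps), limma called 0 in ST between MS-275 and DMSO at either day. At an unadjusted p under 0.05 there were 1 and 3, with medians of 0.35 at 3 dpa and -0.73 at 8 dpa. Over all transcripts 2.86% were called higher and 0.616% lower at 3 dpa, and 0.434% and 0.826% at 8 dpa. TRPV6 transcript GFZP01074642.1, the largest rise at 3 dpa, differed by 1.74 (adjusted p = 0.05481). It was at 0 and 0.02 TPM with DMSO and at 0.26 and 0.27 TPM with MS-275, so near 0 that its difference depends on the pseudocount of 0.1. Of 8 transcripts of muscle calcium handling (ryanodine receptors and sarcoplasmic calcium pumps), limma called 0 at either day, beside the same shares. At an unadjusted p under 0.05 there were 3 and 3, with medians of -0.38 and 0.53. In lists this small, 0 calls does not set the transcripts apart from those shares. ATP2A1 transcript GFZP01062001.1, the fast muscle calcium pump, was at 351.92 and 977.08 TPM in ST at 0 dpa, where S100A1 was at 0 and 0.03 TPM. In ST at 3 dpa it was at 184.19 and 83.98 TPM with DMSO and at 47.00 and 38.31 TPM with MS-275, where S100A1 was highest in that tissue. ATP2A2 transcript GFZP01124823.1 was instead higher with MS-275 in ST at 3 dpa, at 24.78 and 28.25 TPM against 14.88 and 14.86 TPM with DMSO. Summed skeletal muscle markers in ST went from 20879 and 35815 TPM at 0 dpa to 4385 and 3645 TPM at 3 dpa with MS-275. The ST samples poorest in those markers, at 8 dpa with DMSO (2337 and 2731 TPM), held S100A1 at 0.29 and 0.09 TPM. The part of muscle content in the S100A1 level was not tested.

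The transcripts with a symbol whose pattern over the 20 samples was most like that of a member, of 4773 compared by Pearson's r on the log2 scale, were as follows. For S100A1 they were S100A11 transcript GFZP01078575.1 (r = 0.946), PLEK2 (r = 0.932) and WFDC8 transcript GFZP01138830.1 (r = 0.929), of which only the last was also among those of S100G. For S100G transcript 1 they were WFDC8 (r = 0.959), S100A11 transcript GFZP01138548.1 (r = 0.953) and a second WFDC8 transcript (r = 0.947), and for S100G transcript 2 WFDC8 (r = 0.956), S100A11 (r = 0.947) and another WFDC8 transcript (r = 0.941). S100A10 had different neighbours, MMP19 (r = 0.940), BCL9L (r = 0.937) and PPP1R3CB (r = 0.936) for transcript 1 and BCL9L (r = 0.951), MMP19 (r = 0.941) and LSP1 (r = 0.937) for transcript 2. PLEK2 is a pleckstrin of the actin cytoskeleton, WFDC8 belongs to the whey acidic protein family of protease inhibitors, and MMP19 is a matrix metalloproteinase. No test goes with these values, since the samples share tissue and condition.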

How the data were processed

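Per the labels and the study's methods, the authors trimmed the reads with cutadapt, mapped them with Bowtie2 and quantified transcripts with RSEM. They deposited 1 table of TPM values, rounded to 2 decimals, for 20 samples. The study's methods give the versions of cutadapt and Bowtie2 but not that of RSEM. The library kit is named differently in the labels and in the methods. Here limma 3.58.1 (R 4.3.3) was fitted to log2(TPM + 0.1) of the 10 samples of each tissue, with mean-variance trend and without a batch term, or of all 20 samples for comparisons between tissues. Only transcripts detected (TPM over 0) in 5 samples or more entered (87546 in ST, 88139 in epidermis, 107026 in both). The code was tested on simulated data. The 2 replicates per group are pools, and an exact permutation test of 2 against 2 cannot go below 0.333. Members, lists and tests were chosen with earlier results of these data known. Named genes were the members, the other S100 transcripts, the largest changes of each list, and the 3 most similar transcripts per member; the annexin A2, ATP2A1 and AHNAK values outside that rule were chosen after their values were seen. Alternatives were another pseudocount (1), other filters, limma without trend, rescaling to equal median ratios, a replicate block, a fit on all samples, summed transcripts per gene, and leaving out each sample.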

Additional observations from a re-analysis of the deposited data

Results flagged for a closer look

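The MS-275 effect in ST differed between 3 and 8 dpa for 3 of the 5 transcripts by the limma interaction. It was -6.43 for S100A1, -5.44 for S100G transcript 1 and -6.26 for S100G transcript 2, beside 1.10% of all transcripts called lower. On rescaling to equal median ratios these 3 calls were lost (limma adjusted p = 0.06054 to 0.07199). With MS-275 the change from 3 to 8 dpa also differed between epidermis and ST for S100A1, by 5.34 (limma adjusted p = 0.04866). Beside this, 0.0206% of all transcripts were called higher. All these calls were close to the threshold and depended on single samples, as given above.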

How the results depend on the processing

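The rise of S100A1 and both S100G transcripts in ST with MS-275 at 3 dpa, and their excess in epidermis over ST at 8 dpa with MS-275, kept their calls under the alternatives run, of which the filter on mean TPM gives no support, since S100A1 and S100G pass it in ST through the MS-275 samples of 3 dpa. Counts of members called, with each sample left out in turn, were in ST 3 to 4 for MS-275 against DMSO at 3 dpa, 0 to 1 at 8 dpa, 0 to 3 for 8 against 3 dpa with MS-275, 0 to 3 for the interaction, 0 to 2 and 1 to 4 for control 3 and 8 dpa against 0 dpa, and 4 to 5 and 3 to 5 with MS-275; between tissues they were 0 to 3 at 3 dpa and for the difference in time course. Rescaling to equal median ratios gave in ST 0 called for control 8 against 0 dpa, 3 and 3 for MS-275 at 3 and 8 dpa against 0 dpa, 0 for 8 against 3 dpa with MS-275 and 0 for the interaction, with 2 for MS-275 in epidermis at 8 dpa, 1 between tissues at 3 dpa and 3 for the difference in time course. Over all transcripts, in the same order and in either direction, it called 11321, 11766, 10545, 5 and 151 of 87546 in ST. In epidermis it called 4374 of 88139, and between tissues 10964 and 35 of 107026. Requiring a mean TPM of 1 gave 2 and 4 for control ST at 3 and 8 dpa against 0 dpa, 2 for MS-275 at 8 dpa and 3 for the difference in time course. Over all transcripts that filter called 13704, 19964 and 2692 of 31656 in ST and 55 of 32185 for the difference in time course. The counts of 2 and 4 for control ST are thus not set apart from all transcripts. The fit on all 20 samples gave 2, 4 and 3 for the same ST comparisons. Its counts and those with samples left out are given without the share over all transcripts, so they do not set the members apart. A pseudocount of 1 gave 2 between tissues at 3 dpa and 3 for the difference in time course, beside 12840 and 68 of 107026 transcripts called. A filter of any TPM above 0 gave 3 for the latter, beside 323 of 138719. Limma without trend gave 0 for it, beside 29 of 107026, and 0 for 8 against 3 dpa with MS-275 in ST, beside 22 of 87546. The causes were not tested.

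Among the differences tested, directions that turned were all of ones not past the test. In control ST between 3 and 8 dpa S100A1 was at -0.20 rescaled, with -0.42 to 0.62 over left-out samples, and S100A10 transcript 1 at -0.029 rescaled. S100G transcript 1 was at 0.27 in that comparison for summed S100G, with -0.96 to 0.58 over left-out samples. For MS-275 at 8 dpa in ST, S100A10 transcript 2 was at -0.0161 to 0.1531 over left-out samples. S100A10 transcripts 1 and 2 were at 0.0725 and 0.0723 for the rescaled difference in time course between tissues. Some S100A10 differences described without a test turned too. Epidermis minus ST at 3 dpa with DMSO, for example, went from -0.30 and -0.32 to 0.03 and 0.02 on rescaling.

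The labels do not say whether the replicate numbers pair the samples, and no pairing was used. Same-numbered samples of both tissues deviated together with correlations of 0.003 to 0.138. Taken over all transcripts tested, such correlations cannot exclude a pairing. With a replicate block 0 members were called for 8 against 3 dpa with MS-275 in ST (S100A1 -6.33, adjusted p = 0.06059) and 3 for the difference in time course, by limma. Over all transcripts the block called 9 of 87546 and 52 of 107026 in these comparisons. No other count of members changed by over 1.5 times with the block. In ST 1 pair of groups had a correlation of -0.100, and a block with crossed numbers, chosen after seeing the data, called 15444 transcripts for MS-275 at 8 dpa against 0 dpa, against 16600 without it.

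TPM rounded to 2 decimals limits values near 0, and with 2 pools a group the spread is borrowed across groups and transcripts.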
